A study of Mus musculus with 6 samples.

Results

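MHC class I presentation was followed here through 9 genes, *H2-K1*, *H2-D1*, *B2m*, *Tap1*, *Tap2*, *Tapbp*, *Psmb8*, *Psmb9* and *Nlrc5*, which were picked out of the table by gene symbol. All 9 were among the 15280 genes of the RNA-Seq table. The table covers 3 mammary tumors (T) and 3 normal glands (M) lying next to them, with a tumor and a gland from each of 3 mice, so n = 3 for each tissue, and a library's name ends in the number of its mouse. All 3 mice were BK5.ATF3 transgenic females that had raised 1 litter, and their tumors arose at 6 to 12 months of age and were collected at a length of 1.5 cm. In these mice the bovine keratin 5 promoter drives ATF3, a stress-responsive transcription factor, in basal epithelial cells. Both tissues carry the transgene and no wild-type tissue was analysed here, so every comparison is of tumor against gland within transgenic animals. The strain of the mice is not given in the sources used here.

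MHC class I molecules display short peptides from proteins made inside a cell to CD8+ T cells, and they are also read by inhibitory receptors of NK cells. The peptides are cut by the proteasome, in which inducible subunits can take the place of constitutive ones, pumped into the endoplasmic reticulum by the TAP transporter, and loaded with the help of tapasin onto a heavy chain paired with β2-microglobulin. Transcription of many of these genes is raised by interferon-γ and by the transactivator NLRC5, and the genes are used by nearly all nucleated cells, with high levels in immune cells.

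Most class I genes were lower in the tumors than in the adjacent glands, by amounts that mostly stayed under 2-fold. The fitted log2 fold change was negative for 8 of the 9 genes, against 50.2% of all genes in the table, and the median of the 9 was -0.55, against 0 over all genes. Here a gene was called a DEG where the tumors differed by 2-fold or more and the Benjamini-Hochberg FDR over all 15280 genes, from limma on log2(CPM + 0.5), did not exceed 0.05. By that rule 1 of the 9 genes, *Psmb9*, was downregulated and 0 were upregulated. This is 11.1% of the members called, while 28.2% of all genes were DEGs, 13.7% downregulated and 14.5% upregulated. On FDR alone, 2 of 9 genes (22.2%), *H2-D1* and *Psmb9*, were lower in tumors and 0 were higher, beside 19.6% and 21.6% of all genes (41.2% in either direction). In 3 of 9 genes (33.3%) the 3 tumors lay wholly below the 3 glands, beside 26.3% of all genes. In 7 of 9 genes (77.8%) the tumor was below the gland of the same mouse in all 3 mice, beside 33.3% of all genes. With the mouse as a replicate block in limma, 6 of 9 genes passed the FDR, all of them lower in tumors (beside 19.6% of all genes lower in that fit), and *Psmb9* was the DEG. In RNA from whole tissue, fewer cells of a type and less RNA per cell cannot be told apart.

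**Figure D1:**
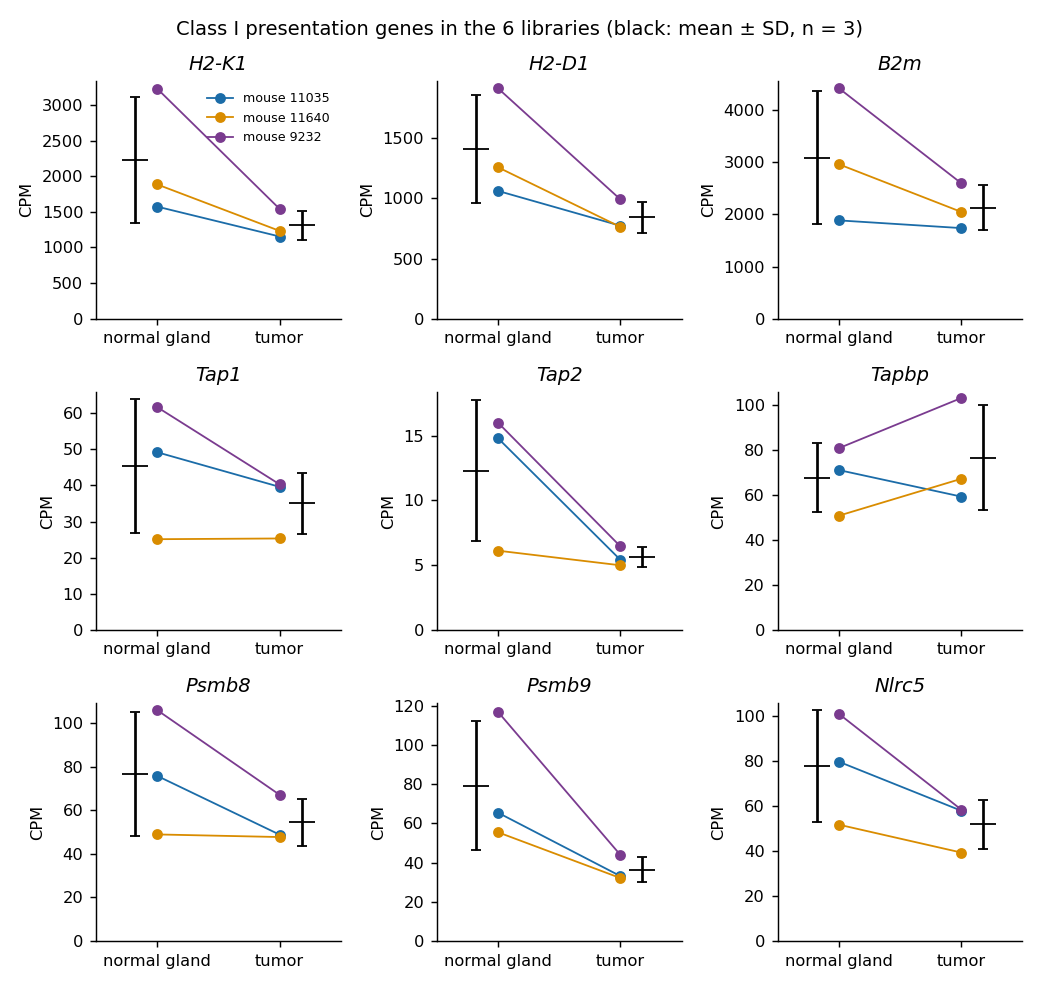
CPM of each of the 9 class I genes (vertical axes, from 0) in the normal gland and the tumor of each mouse, with lines joining the tissues of a mouse and black bars for the mean ± SD (n = 3). The mouse of T9232 (purple) is at the top of every panel in both tissues, and the tumors lie wholly below the glands for *H2-K1*, *H2-D1* and *Psmb9*.

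Depth was between 4750989 and 7806908 fragments on genes per library, and 3 fragments, the floor used here, correspond to 0.393 to 0.610 CPM. The class I genes were covered by 29 to 32343 fragments per library, all above that floor. Mouse *Atf3*, given because the transgene encodes ATF3, was read at 4.47, 8.09 and 22.6 CPM in glands M11035, M11640 and M9232, and at 13.4, 18.3 and 19.3 CPM in the tumors of the same mice. These ranges overlapped (log2 fold change 0.80, limma adjusted p = 0.224), and fragments of the transgene cannot be told apart from those of the mouse gene here.

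Of the 9 genes, 7 lie on chromosome 17, in or beside the mouse MHC. On mm9, *H2-K1* spans 34132962 to 34137278 on the minus strand and *H2-D1* spans 35399675 to 35404444 on the plus strand. *Psmb9* (34318933 to 34324709, minus strand), *Tap1* (34324498 to 34334170), *Psmb8* (34334666 to 34338399) and *Tap2* (34340472 to 34353266, all plus strand) follow each other closely, and *Tapbp* is at 34052844 to 34066235 on the plus strand. *B2m* is on chromosome 2 (121973422 to 121978819, plus strand) and *Nlrc5* on chromosome 8 (96996663 to 97051172, plus strand). The annotated exons of *Psmb9* and *Tap1* overlap by 212 bp on opposite strands, and those of *Tapbp* and *Zbtb22* by 61 bp. Strand-aware counting is not stated, so fragments in these overlaps cannot be assigned. Class I heavy chains form a multigene family, and the transcripts of *H2-D1* and *H2-K1* matched that of *H2-Q4* at 91.6% over 940 bp and 91.4% over 945 bp. With *H2-D1* as the query, 7 other genes matched at 90% or more over at least 500 bp, and with *H2-K1* as the query 1 did. The heavy chains matched each other at 91.4% over 746 bp from *H2-D1* and at 88.4% over 1502 bp from *H2-K1*. The counts therefore depend on the query. For any of the 8 members searched, 0 genes reached 95%. The split of fragments between heavy-chain genes is therefore uncertain, and the MHC haplotype of the mice is not given in the sources used here.

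Promoter windows from 250 bases before to 50 bases after the transcript start were taken from RefSeq (GRCm38.p6), in which 7 of the 9 genes matched. The windows of both heavy chains, *B2m* and *Tap1* are printed 5′ to 3′ on the gene's strand, since they show the elements through which class I genes are known to be regulated. Capitals mark matches on either strand to GAAA repeated after any 2 bases (one form of the interferon-stimulated response element), GGGANNNCC (a κB site) and TGACG (part of the X box shared with cyclic AMP response elements), and the marked matches do not overlap one another.
H2-K1, chr17:34000298-34000597, minus strand: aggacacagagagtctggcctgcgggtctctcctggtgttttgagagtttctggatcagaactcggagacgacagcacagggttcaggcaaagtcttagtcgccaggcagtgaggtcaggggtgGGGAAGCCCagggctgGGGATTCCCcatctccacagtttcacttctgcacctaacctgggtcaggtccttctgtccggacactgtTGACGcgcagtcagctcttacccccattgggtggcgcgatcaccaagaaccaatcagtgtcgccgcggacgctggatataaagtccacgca
H2-D1, chr17:35262844-35263143, plus strand: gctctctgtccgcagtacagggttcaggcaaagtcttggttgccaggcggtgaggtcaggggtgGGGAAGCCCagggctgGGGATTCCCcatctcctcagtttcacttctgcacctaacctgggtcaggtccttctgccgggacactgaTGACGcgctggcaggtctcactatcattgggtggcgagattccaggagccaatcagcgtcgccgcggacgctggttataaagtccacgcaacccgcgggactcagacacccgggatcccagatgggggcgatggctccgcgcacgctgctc
B2m, chr2:122147437-122147736, plus strand: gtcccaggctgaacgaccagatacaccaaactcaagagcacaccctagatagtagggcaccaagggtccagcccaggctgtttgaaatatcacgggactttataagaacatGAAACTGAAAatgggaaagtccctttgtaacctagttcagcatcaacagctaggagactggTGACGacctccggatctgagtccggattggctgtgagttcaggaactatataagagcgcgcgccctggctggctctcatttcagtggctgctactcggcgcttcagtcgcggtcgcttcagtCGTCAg
Tap1, chr17:34187306-34187605, plus strand: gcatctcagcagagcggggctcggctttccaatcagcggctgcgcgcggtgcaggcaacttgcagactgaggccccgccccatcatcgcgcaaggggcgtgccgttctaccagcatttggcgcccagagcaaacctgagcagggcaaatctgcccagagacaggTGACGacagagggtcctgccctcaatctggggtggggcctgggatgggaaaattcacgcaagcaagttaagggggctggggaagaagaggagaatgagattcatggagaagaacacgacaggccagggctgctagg

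The heavy-chain windows share their layout. In both *H2-K1* and *H2-D1* the κB matches begin 16 bases apart, and TGACG begins 69 bases after the second of them. GGGANNNCC was found in 2 of 7 members, these heavy chains, and in 18.6% of the 32851 RefSeq promoter windows. TGACG was in 5 of 7 members and in 20.8% of all windows, and CCAAT (the CCAAT box, not capitalized) was in 6 of 7 members and in 37.4% of all windows. Of the 7 members, *B2m* alone matched the strict pattern of GAAA repeated after 2 bases (3.44% of all windows) and *Psmb8* alone matched TTCNNNGAA (a gamma-activated site, 8.30% of all windows). Other forms of these elements were not searched. The window of *Tap1* shares 275 of its bases with that of *Psmb9*, which is read in the opposite direction. Their TGACG and CCAAT matches are the same bases read from opposite strands, so the counts above include these sites under both genes. A match is a description of these letters and does not show that a factor binds.

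The classical heavy chains, which hold the peptide and face the T cell receptor, had the same fitted difference between tissues. *H2-K1* was read at 1574, 1886 and 3232 CPM in glands M11035, M11640 and M9232, and at 1154, 1233 and 1542 CPM in tumors T11035, T11640 and T9232. All 3 tumors lay below all 3 glands, with means of 1309.6 ± 205 against 2231 ± 881 CPM (SD, n = 3), or 58.7% of the gland level. The log2 fold change of *H2-K1* was -0.71 (SE 0.26, 95% interval -1.30 to -0.12, limma adjusted p = 0.0555), which did not pass the FDR. *H2-D1* was read at 1063, 1259.6 and 1917 CPM in the glands and at 773, 763 and 992 CPM in the tumors, in the same order of mice. Its groups did not overlap either, and its mean went from 1413 ± 447 to 843 ± 129.6 CPM, or 59.6%. For *H2-D1* the log2 fold change was also -0.71 (SE 0.22, 95% interval -1.22 to -0.20, limma adjusted p = 0.0331), past the FDR but short of the 2-fold threshold. With the replicate block, the limma adjusted p was 0.00879 for *H2-K1* and 0.00579 for *H2-D1*. Without gland M9232, the library with the highest level of both, the log2 fold changes were -0.41 and -0.47 and neither gene passed the FDR (limma adjusted p = 0.128 and 0.0793). *H2-D1* also missed it without gland M11640 (0.0539), tumor T11035 (0.0989), tumor T11640 (0.121) or both libraries of the latter's mouse (0.168). *H2-K1* passed it without gland M11035 (-0.93, 0.0199).

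*B2m* encodes β2-microglobulin, the light chain of every classical class I molecule. It was read at 1886, 2964 and 4424 CPM in glands M11035, M11640 and M9232, and at 1738, 2049 and 2599.7 CPM in the matching tumors. The tumor was lower in each mouse, yet the groups overlapped, since tumors T11640 and T9232 were above gland M11035. Its mean was 3091 ± 1274 CPM in glands and 2129 ± 437 CPM in tumors, with a log2 fold change of -0.47 (SE 0.29, 95% interval -1.14 to 0.20, limma adjusted p = 0.231). With the replicate block the limma adjusted p was 0.0408. *B2m* also passed the FDR without gland M11035 (-0.79, limma adjusted p = 0.031), whereas without gland M9232 its log2 fold change was -0.17 (0.628).

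Relative to *B2m* in the same library, a ratio that does not depend on how libraries are scaled, each heavy chain overlapped between tissues. *H2-K1* over *B2m* was 0.835, 0.636 and 0.731 in the glands and 0.664, 0.602 and 0.593 in the tumors. *H2-D1* over *B2m* was 0.564, 0.425 and 0.433 in the glands and 0.445, 0.372 and 0.382 in the tumors. Both ratios were lower in the tumor in 3 of 3 mice and overlapped between tissues, with a log2 difference of -0.24 for each. The exact two-sided permutation test of 3 against 3 gave p = 0.2 and 0.3 (0.3 for each after adjustment over 2 ratios), where 0.1 is the smallest value it can give. Without gland M11035 the differences were -0.14 and -0.11.

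The genes of peptide transport and loading had fold changes on both sides of 0, and none was a DEG. *Tap1*, a subunit of the TAP transporter, was read at 49.2, 25.1 and 61.7 CPM in glands M11035, M11640 and M9232, and at 39.6, 25.3 and 40.3 CPM in the tumors. The tissues overlapped and M11640 and T11640 showed almost the same level (means 45.3 ± 18.6 and 35.1 ± 8.48 CPM, log2 fold change -0.30, 95% interval -1.06 to 0.46, limma adjusted p = 0.5). For *Tap1* the value was -0.67 without gland M11640 (limma adjusted p = 0.0718), -0.03 without gland M9232 (0.948) and -0.09 without tumor T11640 (0.884). *Tap2*, its partner subunit, was read at 14.8, 6.11 and 16.0 CPM in the glands and at 5.4, 4.98 and 6.44 CPM in the tumors. Gland M11640 was within the range of the tumors, while the other glands were above all of them (means 12.3 ± 5.41 and 5.61 ± 0.754 CPM). The log2 fold change of *Tap2* was -0.97 (SE 0.36, 95% interval -1.78 to -0.16, limma adjusted p = 0.0578). *Tap2* rests on 29 to 117 fragments per library, the fewest of the 9 genes. Its call depended on the fit, since *Tap2* was a DEG without gland M11640 (-1.39, limma adjusted p = 0.00341), without both M11640 and T11640 (-1.31, 0.0221), with the quasi-likelihood test of edgeR (-1.13, adjusted p = 0.0377), with DESeq2 (-1.13, adjusted p = 0.0229) and with edgeR and the replicate block (-1.04, adjusted p = 0.0270).

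*Tapbp* encodes tapasin, which bridges the TAP transporter and the empty heavy chain, and it was the member whose fitted fold change was above 0. It was read at 71.0, 50.7 and 80.7 CPM in glands M11035, M11640 and M9232, and at 59.2, 67.1 and 103 CPM in the tumors. T11640 and T9232 were above their own glands and T11035 below its own, and the tissues overlapped (means 67.5 ± 15.3 and 76.5 ± 23.4 CPM). The log2 fold change of 0.16 (SE 0.25, 95% interval -0.41 to 0.73, limma adjusted p = 0.632) was within the spread between libraries, and it was below 0 without gland M11640 or tumor T9232, at -0.03 and -0.07.

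**Figure D2:**
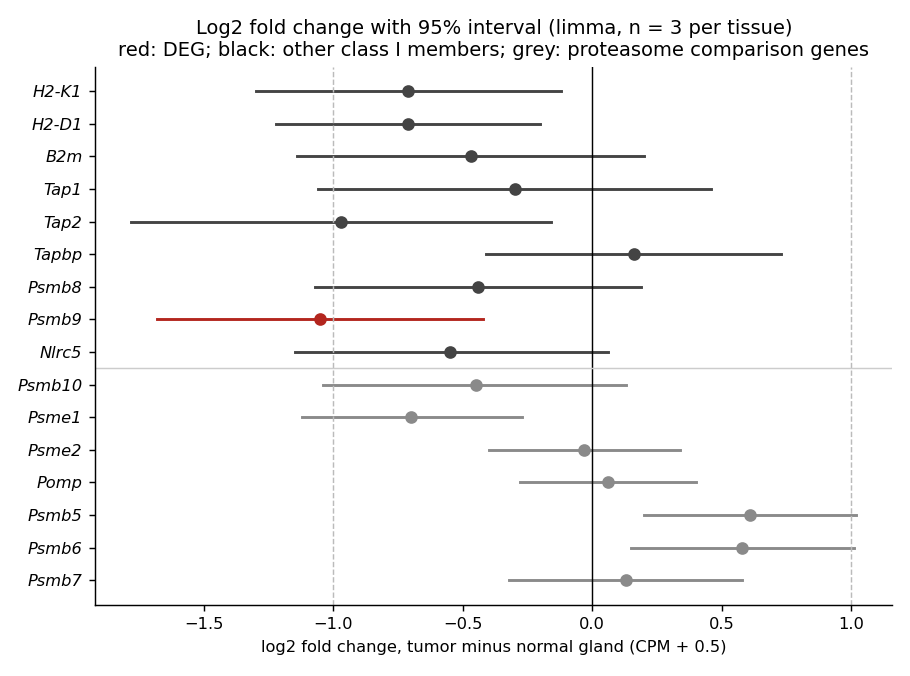
Log2 fold change, tumor minus normal gland, with its 95% interval from limma for the 9 class I genes and 7 proteasome genes set beside them (n = 3 per tissue, dashed lines at 2-fold). *Psmb9* (red) was the DEG among them, the intervals of 4 class I genes lay below 0, and those of *Psmb5* and *Psmb6* lay above 0.

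Of the inducible proteasome subunits, *Psmb9* (LMP2), which takes the place of the constitutive subunit *Psmb6*, had the lowest fitted log2 fold change of the 9 genes in the reported test, close to that of *Tap2*, which was lower with DESeq2, without gland M11640 and without both M11640 and T11640. *Psmb9* was read at 65.5, 55.5 and 117 CPM in glands M11035, M11640 and M9232, and at 33.1, 32.1 and 43.9 CPM in the tumors. Each tumor was below each gland, and the mean of 79.3 ± 33.0 CPM in glands compared with 36.4 ± 6.54 CPM in tumors, 45.9% of the gland level. The log2 fold change of *Psmb9* was -1.05 (SE 0.28, 95% interval -1.68 to -0.42, limma adjusted p = 0.0157), close to the 2-fold threshold. It was negative under all 19 alternatives, from -1.27 to -0.74, and it was a DEG in 13 of them. It lost the call on its size without gland M9232 (-0.74, limma adjusted p = 0.0254) or without both M9232 and T9232 (-0.88, 0.0191). It missed both the size and the FDR without tumor T11035 (-0.99, 0.0547) or tumor T11640 (-0.97, 0.0664). It missed the FDR alone without both M11035 and T11035 (-1.09, 0.0599) or both M11640 and T11640 (-1.19, 0.0504).

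*Psmb8* (LMP7), the inducible counterpart of *Psmb5*, was read at 75.8, 48.9 and 106 CPM in glands M11035, M11640 and M9232, and at 48.8, 47.7 and 67.1 CPM in the tumors. Tumor T9232 was above gland M11640, and the means were 76.8 ± 28.4 and 54.5 ± 10.9 CPM (log2 fold change -0.44, 95% interval -1.07 to 0.19, limma adjusted p = 0.237). *Psmb8* passed the FDR without gland M11640 (-0.73, limma adjusted p = 0.0413), and without gland M9232 its log2 fold change was -0.18 (0.618). The constitutive subunits stood on the other side of 0. *Psmb5* had 13.1 ± 1.19 CPM in glands and 20.1 ± 1.65 CPM in tumors (log2 fold change 0.61, limma adjusted p = 0.0258), *Psmb6* had 27.8 ± 2.24 and 42.2 ± 8.10 CPM (0.58, 0.0376), and *Psmb7* had 140 ± 20.0 and 155 ± 33.9 CPM (0.13, 0.630). *Psmb10*, the inducible counterpart of *Psmb7*, had 13.7 ± 3.56 CPM in glands and 9.69 ± 1.79 CPM in tumors (-0.45, limma adjusted p = 0.191). None of these 4 was a DEG.

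The ratio of an inducible subunit to the constitutive one it replaces was lower in every tumor than in every gland for *Psmb8* and *Psmb9*. *Psmb8* over *Psmb5*, by CPM, was 5.41, 4.17 and 7.88 in glands M11035, M11640 and M9232, while the matching tumors had 2.52, 2.51 and 3.05 (means 5.82 ± 1.89 and 2.69 ± 0.308, log2 difference -1.07). *Psmb9* over *Psmb6* was 2.46, 1.83 and 4.43 in the glands and 0.994, 0.653 and 0.993 in the tumors (means 2.90 ± 1.36 and 0.880 ± 0.197, log2 difference -1.65). For *Psmb10* over *Psmb7*, gland M11640 at 0.0597 lay within the tumors' 0.05 to 0.0779, while the other glands were at 0.110 and 0.134 (log2 difference -0.60). All 3 ratios were lower in the tumor in 3 of 3 mice. The exact two-sided permutation test of 3 libraries against 3 gave p = 0.1 for *Psmb8* over *Psmb5*, 0.1 for *Psmb9* over *Psmb6* and 0.3 for *Psmb10* over *Psmb7*, or 0.15, 0.15 and 0.3 adjusted over 3 ratios. The smallest value this design allows is 0.1, so it cannot pass 0.05. Without gland M9232 the log2 differences were -0.82, -1.29 and -0.36, and without gland M11640 that of *Psmb10* over *Psmb7* was -0.95. The genes *Psmb8* and *Psmb9* were set against have their own annotated lengths, so a ratio compares tissues and not the numbers of subunits.

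**Figure D3:**
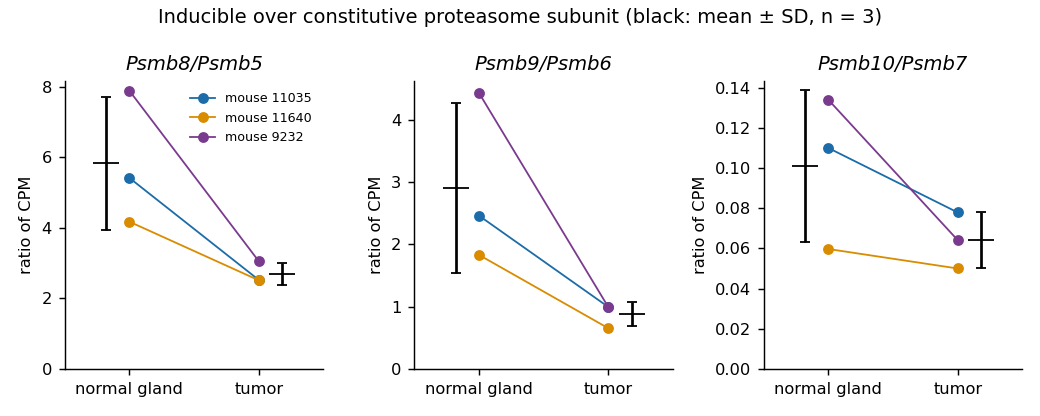
Ratio of CPM (vertical axes, from 0) of each inducible proteasome subunit to the constitutive subunit it replaces, in the normal gland and the tumor of each mouse, with the mean ± SD in black (n = 3). The tumors lie below all glands for *Psmb8*/*Psmb5* (2.51 to 3.05 against 4.17 to 7.88) and *Psmb9*/*Psmb6* (0.653 to 0.994 against 1.83 to 4.43), and overlap with gland M11640 for *Psmb10*/*Psmb7*.

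*Nlrc5*, the transactivator of class I genes, was read at 79.7, 51.7 and 101 CPM in glands M11035, M11640 and M9232, and at 57.9, 39.3 and 58.4 CPM in the tumors. The tumor was lower in each mouse, but tumors T11035 and T9232 were above gland M11640. Its means of 77.6 ± 24.9 and 51.9 ± 10.9 CPM gave a log2 fold change of -0.55 (SE 0.27, 95% interval -1.15 to 0.06, limma adjusted p = 0.134). With the replicate block the limma adjusted p was 0.0297. *Nlrc5* also passed the FDR without gland M11640 (-0.81, limma adjusted p = 0.0286), whereas its log2 fold change was -0.33 without gland M9232 (0.358) and -0.36 without tumor T11640 (0.385).

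Per kilobase of annotated exon (GENCODE vM1), the members spanned a wide range of levels. In the glands *B2m* was highest at 3595 ± 1481 CPM per kb, followed by *H2-K1* at 855 ± 338 and *H2-D1* at 546 ± 173 CPM per kb. *Psmb8* (17.9 to 38.6), *Psmb9* (15.2 to 32.0) and *Tapbp* (15.4 to 24.5 CPM per kb over the 3 glands) came next, then *Nlrc5* (7.08 to 13.9), *Tap1* (4.58 to 11.3) and *Tap2* (1.62 to 4.23 CPM per kb). The ranges of the 3 glands overlapped between *H2-K1* and *H2-D1*, between *Psmb8*, *Psmb9* and *Tapbp*, and between *Nlrc5* and *Tap1*. Within libraries the order per kb was steadier, since *H2-K1* exceeded *H2-D1*, *Psmb8* exceeded *Psmb9* and *Nlrc5* exceeded *Tap1* in 6 of 6 libraries. For *Psmb8* and *Psmb9* this order depended on the annotated exon lengths, 2736 and 3660 bp. By CPM alone, *Psmb9* was above *Psmb8* in glands M11640 (55.5 against 48.9 CPM) and M9232 (117 against 106 CPM). Fragments were counted on RefSeq genes, so levels per kb also depend on the GENCODE lengths. *Psmb8* exceeded *Tapbp* per kb in 3 of 3 glands and 0 of 3 tumors. In the tumors *B2m* (2475 ± 508), *H2-K1* (502 ± 78.6) and *H2-D1* (326 ± 50.1 CPM per kb) were again at the top and *Tap2* (1.48 ± 0.199 CPM per kb) at the bottom. *Tapbp*, at 23.2 ± 7.10 CPM per kb, stood above *Psmb9* at 9.94 ± 1.79 CPM per kb there, with no overlap between the tumors' ranges. Levels of genes that share exons or sequence carry the uncertainty given above.

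The mouse of M9232 and T9232 had the highest level of every member. Its gland was the highest gland for 9 of 9 genes and its tumor the highest tumor for 9 of 9, whereas 11.9% of all genes were highest in that mouse in both tissues. M11640 was the lowest gland for 6 of 9 genes and T11640 the lowest tumor for 6 of 9, and M11035 and T11035 were lowest for the other 3 in each tissue. The difference between tissues was also largest in the mouse of T9232, with a median log2 difference of -0.79 over the 9 genes, against -0.46 in that of T11035 and -0.39 in that of T11640. T11035 was below M11035 for 9 of 9 genes, T11640 below M11640 for 7 of 9 and T9232 below M9232 for 8 of 9. Summed over the members, glands M11035, M11640 and M9232 had 4879, 6347 and 10055 CPM and their tumors 3908, 4262 and 5453 CPM. Without gland M9232 the median log2 fold change of the members was -0.33, and without gland M11035 it was -0.78.

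Across the 6 libraries, the log2 levels of the 36 pairs of members correlated with r from 0.165 (*H2-D1* with *Tapbp*) to 0.992 (*H2-K1* with *H2-D1*), with a median of 0.750. These points share libraries, mice and the difference between tissues, and the values are a description. The mean profile of the members was set beside 14703 other genes that averaged 1 CPM or more, of which 122 reached r = 0.9. The most alike were *Erv3* (r = 0.9985), *Mcoln2* (0.9941), *Irf1* (0.9913), *Kctd13* (0.9901) and *G630090E17Rik* (0.9898). *Irf1*, a transcription factor that interferon-γ induces, was read at 41.5, 30.1 and 58.3 CPM in glands M11035, M11640 and M9232, and at 25.1, 23.2 and 35.7 CPM in the tumors. Its tissues overlapped through gland M11640 (log2 fold change -0.59, 95% interval -1.20 to 0.02, limma adjusted p = 0.109). *Mcoln2*, a lysosomal ion channel gene, was the DEG of the 5, with 26.1 ± 18 CPM in glands and 8.76 ± 3.31 CPM in tumors (log2 fold change -1.36, limma adjusted p = 0.0428). *Erv3* had 1 to 38 fragments per library, *G630090E17Rik* 7 to 21 and *Kctd13* 13 to 32, so their likeness rests on few fragments.

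The other class I heavy chains and class I-like chains included downregulated DEGs and no upregulated ones. Of 36 listed, 17 were in the table, 8 were downregulated and 0 upregulated, beside 13.7% and 14.5% of all genes. The median log2 fold change was -1.16, and 16 of 17 had a negative fold change. *Cd1d1*, which presents lipids to NKT cells, was lowest, with 120, 109.5 and 77.6 CPM in glands M11035, M11640 and M9232, while the matching tumors had 7.26, 4.72 and 6.89 CPM. Its groups were far apart, with a log2 fold change of -3.92 (SE 0.23, limma adjusted p = 8.04e-06). *Mr1*, which presents vitamin B metabolites to MAIT cells, was the least changed of the 8 called (-1.05, limma adjusted p = 0.00459), and of the single libraries left out, M11640 and T11035 each cost it the call. *Mr1* was a DEG in 16 of 19 alternatives. The calls of *H2-Q1* and *H2-M9*, named after their values were seen, were less steady, at 9 and 13 of 19. *H2-Q1* had 3 to 31 fragments per library and was not called with DESeq2 or the quasi-likelihood test of edgeR. Without M11640 and T11640 the list had 5 DEGs. *H2-M2* and *H2-M3*, named after their values were seen, had log2 fold changes of -3.70 and -1.21 (limma adjusted p = 1.14e-05 and 0.00382) and were DEGs under all 19 alternatives.

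Among the chaperones and peptidases listed for peptide trimming and loading, most calls were upregulated. What each of them does to class I peptides was not examined. Of 17 listed, all in the table, 4 were upregulated, 1 was downregulated and 12 were not called, with a median of 0.32. Over all genes, 14.5% were upregulated and 13.7% downregulated. *Blmh*, a cytosolic peptidase, was highest, with 46.2 ± 1.49 CPM in glands and 141 ± 22 CPM in tumors (log2 fold change 1.59, limma adjusted p = 9.39e-05). The others called, named after their values were seen, were *Thop1*, *Npepps* and *Pdia3*, with log2 fold changes of 1.35, 1.12 and 1.08 (limma adjusted p = 0.00909, 0.000507 and 0.00255). *Pdia3*, which encodes ERp57, the partner of tapasin in the loading complex, lost the call without gland M11035 or tumor T11640. *Tapbpl*, which encodes the tapasin-related peptide editor TAPBPR, was the gene that fell, from 24.1 ± 7.83 to 11.2 ± 2.40 CPM (log2 fold change -1.05, limma adjusted p = 0.0144), and it lost the call without gland M9232, tumor T11035 or tumor T11640. Without M11640 and T11640 there were 2 upregulated genes in the list. Among the remaining inducible proteasome genes, with *Psmb10* 0 of 4 were DEGs, and *Psme1*, an activator subunit named after its values were seen, had a log2 fold change of -0.70 (limma adjusted p = 0.0164).

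**Figure D4:**
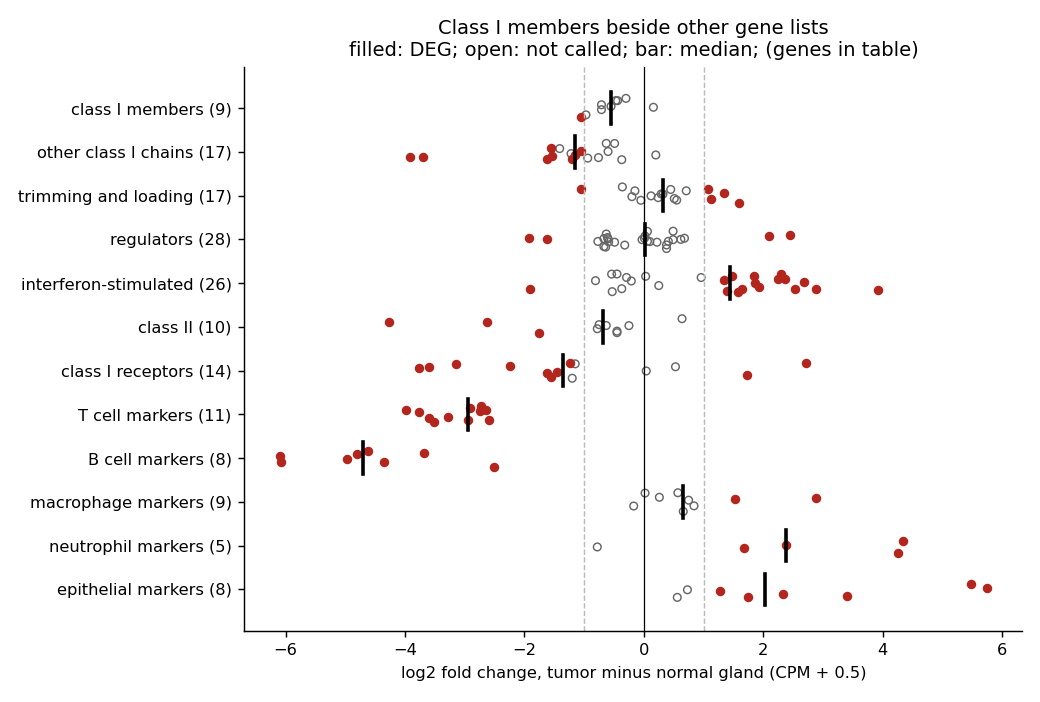
Log2 fold change, tumor minus normal gland, of each gene in 12 lists (filled red for DEGs, open for genes not called, bar for the list median, dashed lines at 2-fold). The class I members have a median of -0.55, other class I chains -1.16 and T cell and B cell markers -2.95 and -4.71, while interferon-stimulated genes and epithelial markers are at 1.43 and 2.03.

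Regulators of class I transcription and interferon signaling showed no common direction. Of 30 listed, 28 were in the table, 2 were upregulated and 2 downregulated, with a median of 0.01. Over all genes, 14.5% were upregulated and 13.7% downregulated. *Socs3*, a feedback inhibitor of cytokine signaling, rose from 2.38 ± 0.520 to 15.1 ± 2.88 CPM (log2 fold change 2.44, limma adjusted p = 0.000142). *Ciita*, the class II transactivator and relative of *Nlrc5*, fell from 38.3 ± 11.8 to 9.36 ± 0.596 CPM (-1.93, limma adjusted p = 0.000359). The other two called, *Irf7* and *Irf8*, were named after their values were seen and had log2 fold changes of 2.09 and -1.63 (limma adjusted p = 0.00526 and 0.00199).

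Interferon-stimulated genes as listed were mostly higher in the tumors. Of 26 genes, 15 were upregulated (background 14.5% of all genes) and 1 downregulated (background 13.7%), with a median of 1.43. *Isg15*, a ubiquitin-like modifier, rose most, from 2.44, 5.78 and 5.33 CPM in glands M11035, M11640 and M9232 to 50.4, 72.5 and 101 CPM in the tumors (log2 fold change 3.92, limma adjusted p = 5.6e-05). *Gbp4*, a GTPase that interferon-γ induces, was the gene that fell, from 141 ± 36.8 to 38.2 ± 13.9 CPM (-1.90, limma adjusted p = 0.000938). The list holds 10 GTPases of the Gbp and Irg families, a grouping made after the values were seen. Of these, 0 were upregulated and 1 downregulated, with a median of -0.41. Of the other 16 genes 15 were upregulated, with a median of 1.89, and *Cxcl9* was the gene not called.

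The genes listed as receptors for class I were lower in tumors for the most part. Whether each of them binds class I was not examined. Some, *Cd8a* among them, are also counted among the T cell or NK cell markers below. Of 18 listed, 14 were in the table, with 8 downregulated, 2 upregulated and a median of -1.35. Over all genes, 13.7% were downregulated and 14.5% upregulated. *Cd8a*, a chain of the CD8 co-receptor that binds class I, was read at 92.1, 29.6 and 68.0 CPM in glands M11035, M11640 and M9232, and at 3.72, 3.01 and 4.65 CPM in the tumors (log2 fold change -3.76, SE 0.39, limma adjusted p = 0.000125). *Klra2*, of the Ly49 family, rose from 7.22 ± 2.91 to 47.8 ± 10.9 CPM (2.71, limma adjusted p = 0.000282). Without M11640 and T11640 the list had 5 downregulated genes.

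Markers of several cell types differed between the tissues, some lists lower in tumors and others higher. All 11 T cell markers were downregulated, with a summed level of 290 to 688 CPM in glands and 38.1 to 62.5 CPM in tumors. All 8 B cell markers were downregulated, from 313 to 764 CPM in glands to 9.29 to 12.1 CPM in tumors, where *Pax5*, named after its values were seen, was at 0 in T11640 and T9232. Of 7 NK cell markers 6 were downregulated (sums of 45.4 to 58.7 and 5.02 to 13.0 CPM), and of 6 dendritic cell markers 5 were downregulated and 1 upregulated (110.3 to 154 and 67.9 to 90.8 CPM), the latter a count of 0 without M11035, M11640, T11640 or T9232. Of 5 pan-leukocyte markers 2 were downregulated (1290.2 to 2255 and 715 to 943 CPM), a count of 1 without M11035 and T11035 and of 4 without gland M11640. *Glycam1* and *Cxcl13*, the 2 in the table of 5 genes listed for lymph node stroma, summed to 249 to 946 CPM in glands and 9.49 to 67.9 CPM in tumors. Of these 1 was downregulated. *Glycam1* was at 932 ± 534 CPM per kb in glands and 4.13 ± 1.17 in tumors, and *Cxcl13* at 60.2 ± 24.1 and 23.5 ± 27.4. The tissues overlapped for *Cxcl13*, with T9232 at 55.0 and M11640 at 34.5 CPM per kb. Whether either gene marks lymph node stroma in this tissue was not examined. In contrast to the T cell and B cell markers, 4 of 5 neutrophil markers (72.3 to 161 and 818 to 1409 CPM) were upregulated in the tumors. Neutrophil genes named next were named after their values were seen. *S100a8* and *S100a9* were the highest in tumors (502 and 1308 CPM per kb, against 40.6 for *Cxcr2* and 19.0 for *Csf3r*). *Retnlg*, the gene not called, had 18.6 ± 7.68 CPM per kb in glands and 11.1 ± 5.88 in tumors. Of 8 epithelial markers 6 were upregulated (232 to 504 and 2425 to 2815 CPM). Of 9 macrophage markers 2 were upregulated and 7 were not called, and their sums overlapped (304 to 978 and 669 to 1016 CPM). Over all genes, 13.7% were downregulated and 14.5% upregulated. All 8 adipocyte markers were downregulated (3313 to 6513 and 159 to 218 CPM). Of 7 endothelial markers 2 were downregulated (352 to 483 and 211 to 288 CPM), or 1 without M11640, T11035 or T9232, and of 6 fibroblast markers 3 were upregulated (917 to 3616 and 8436 to 9059 CPM). In no marker list other than that of B cells was a gene at 0 in any tumor, and no marker was at 0 in a gland. Among the glands, the T cell and B cell sums were highest in M11035 (688 and 764 CPM) and lowest in M11640 (290 and 313 CPM), whereas each class I member was highest in M9232. The sums of macrophage (978 CPM), NK cell (58.7), dendritic cell (154), epithelial (504) and lymph node stroma markers (946 CPM) were also highest in M9232. Pan-leukocyte (2255 CPM) and neutrophil sums (161) were highest in M11035, and adipocyte (6513), endothelial (483) and fibroblast sums (3616 CPM) in M11640. Among the tumors, T9232 had the highest T cell, NK cell, macrophage, neutrophil, pan-leukocyte, epithelial, endothelial and lymph node stroma sums. T11640 had the highest B cell (12.1 CPM), dendritic cell (90.8), adipocyte (218) and fibroblast sums (9059 CPM), and the B cell sum was lowest in T9232 (9.29 CPM). The part of these cell types in the class I levels was not tested.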

How the data were processed

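RNA-Seq libraries were prepared by the authors from total RNA of 3 tumors and 3 adjacent glands with a kit that amplifies cDNA (Ovation RNA-Seq System V2). Read pairs were aligned to mm9 with TopHat2 2.0.3 and fragments per RefSeq gene were counted with HTSeq 0.5.3p9, per the submitters' processing notes, which also name CASAVA 1.8.2 and edgeR 3.6.1. Per the labels, the authors deposited CPM on edgeR's effective library size. Because the column sums differ, from 952151 to 1041166, the deposited unit was treated as a normalized signal, tested on a log scale as planned for CPM. Every value (100%, tolerance 1e-06) was a whole multiple of the library's smallest step, so fragments were recovered by division, and edgeR's TMM returned the deposited scaling with a ratio of 1 in each library. Floors cover counting error only, whereas the 95% intervals of fold changes also hold the spread between animals.

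Tumors and glands were compared with limma 3.58.1 (R 4.3.3, mean-variance trend, no block) on log2(CPM + 0.5) for all 15280 genes, so fold changes of low genes are understated. Alternatives were edgeR 4.0.16 and DESeq2 1.42.0 on the recovered fragments, other pseudocounts, filters and scalings, the replicate block, and each library or mouse left out. Scripts were tested on simulated data. Means ± SD are of CPM over 3 mice. The p-values of the reported limma test rest on the spread between libraries within each tissue, moderated over all genes, and do not use the pairing. Ratios were tested by exact permutation. The mouse numbers pair a tumor with a gland of 1 animal, and the paired fit is the replicate block. Deviations from tissue means correlated with r = 0.107, 0.151 and 0.0168 between tumors T11035, T11640 and T9232 and their own glands (14712 genes). No libraries were copies: chi-square over degrees of freedom within a tissue was at least 13.0. All per-sample columns were used (0 left out). Positions came from GENCODE vM1 (mm9), promoters from RefSeq (GRCm38.p6), with motifs searched by script, and related transcripts from BLAST 2.17.0. *Nlrc5* was not among the transcripts searched.

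The members and lists were chosen with earlier results of these data known. Genes named are all members, the called genes with the highest and lowest fold change of each other list except cell type markers, *Psmb5*, *Psmb6*, *Psmb7* and *Psmb10*, and the 5 genes most alike in profile by Pearson r. Others are said to be named after their values were seen.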

Additional observations from a re-analysis of the deposited data

How the results depend on the processing

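Of the 19 alternatives, each left 8 or 9 of the class I members below 0. The count of class I DEGs, 1 in the reported test, was 2 with the FDR alone, 2 with DESeq2, 2 with edgeR, 2 with edgeR and the replicate block and 1 with limma and the replicate block, and from 0 to 2 when a library or a mouse was left out. It was 0 without gland M9232, tumor T11035, tumor T11640, or both libraries of the mouse of T11035 or of T9232. The median log2 fold change of the members ranged from -0.78 to -0.33 when a library or mouse was left out, and from -0.61 to -0.54 otherwise. *Tapbp* changed sign without gland M11640 (-0.03, limma adjusted p = 0.944) and without tumor T9232 (-0.07, 0.835), in a range of -0.07 to 0.38 when libraries or mice were left out. On FDR alone, *H2-D1* passed in 13 of 19 alternatives (adjusted p 0.00579 to 0.168), *H2-K1* in 6 (0.00879 to 0.196), *Tap2* in 6 (0.00341 to 0.244) and *Psmb9* in 15 (0.00154 to 0.0664). With the 2-fold threshold as well, *Tap2* was a DEG in 5 and *Psmb9* in 13. All genes gave 3180 DEGs (without M11640 and T11640) to 4374 (without gland M9232) when libraries or mice were left out, 4298 with limma and the replicate block, and 6289 genes on FDR alone. The proteasome and heavy-chain ratios kept their sign throughout. Within mice, the replicate block gave each ratio an exact permutation p of 0.25, the smallest that 3 pairs allow. The replicate block moved the count of members past the FDR from 2 to 6. With 1 animal left out, 2 animals per tissue remain. The cause of these shifts was not tested. All members were above the floor of 3 fragments, though *Tap2* rests on at most 117 fragments per library.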

Other observations

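Class II presentation genes, which display peptides taken up from outside the cell to CD4+ T cells, were also lower in part. Of 10 listed genes, all in the table, 3 were downregulated and 0 upregulated, with a median log2 fold change of -0.69. Over all genes, 13.7% were downregulated and 14.5% upregulated. *H2-Ob*, a chain of the H2-O modulator of peptide exchange that B cells express, was lowest, at 95.8, 43.3 and 61.6 CPM in glands M11035, M11640 and M9232 and 4.09, 1.97 and 2.70 CPM in the tumors (log2 fold change -4.27, limma adjusted p = 2.98e-05). *H2-DMb2*, of the related editor H2-DM, was the least changed of those called (-1.75, limma adjusted p = 0.00590). The summed level of the list was 1348 to 2532 CPM in glands and 1274 to 2048 CPM in tumors, so the sums overlapped. Without gland M9232, 1 gene of the list was upregulated.

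The ligands of the activating receptor NKG2D, class I-like molecules that do not pair with β2-microglobulin, were represented by 3 of 9 listed genes, 1 upregulated and 1 downregulated. Over all genes, 14.5% were upregulated and 13.7% downregulated. *H60c* was read at 1.02, 0.165 and 1.09 CPM in glands M11035, M11640 and M9232 and at 44.7, 113 and 129.9 CPM in the tumors (log2 fold change 6.22, SE 0.47, limma adjusted p = 2.48e-05). Gland M11640 was below the floor of 3 fragments. *H60b* went the other way, from 82.2 ± 37.7 to 25.3 ± 1.47 CPM (-1.58, limma adjusted p = 0.00306). Without gland M9232, 2 genes of this list were upregulated.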
